A study of Mus musculus with 13 samples.

Results

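The genes described here are 28 genes of cholesterol synthesis and its control by the transcription factor SREBP-2, chosen by name for their place in the pathway. Of these, 25 had a probe set annotated to them alone, out of 22180 genes with such a probe set, and all 25 were bright enough to be among the 13308 genes tested. Acat2, the cytosolic acetoacetyl-CoA thiolase, and Soat2, the cholesterol esterification enzyme, had no probe set named for them in the annotation used, and the probe set of Idi1, the isopentenyl diphosphate isomerase, was annotated to 2 genes and was not used. RNA was measured on Affymetrix whole-transcript arrays in the liver of male C57Bl/6J mice, which ate a diet with 60% fat without restriction from an age of 6 weeks, for 4 weeks, to make them obese. One group then stayed on this diet for 4 more weeks (HFD, 4 arrays). The next received canagliflozin, an inhibitor of the renal glucose transporter SGLT2, at 25 to 30 mg/kg with the same diet for those 4 weeks (CANA, 4 arrays). The last had its calories cut by 15 to 30% so that its weight matched that of the treated mice (CR, 5 arrays). All groups had been made obese first, so no lean group enters the comparisons, and the labels do not say whether each array stands for a separate mouse; p-values therefore measure the spread between arrays.

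Cholesterol is built from acetyl-CoA by way of mevalonate, isoprenoid diphosphates, squalene and lanosterol. When sterols are scarce in the endoplasmic reticulum, SCAP carries SREBP-2 to the Golgi, where it is cut, and the released fragment switches on the genes of the pathway; when sterols are plentiful, the INSIG proteins hold the complex back. The liver is a main site of this synthesis, and the enzymes are known to respond together to sterol supply, feeding and hormones.

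SREBP-2 is known to bind sterol response elements in promoters together with the factor NF-Y, which binds CCAAT boxes, so the starts of these genes were searched for both motifs. Promoter windows from RefSeq (GRCm38.p6), running from 250 bases before to 50 after a start, matched 22 of the 28 genes; Fdft1, Fdps, Npc1, Soat2, Sqle and Stard4 were not matched. CCAAT, searched on both strands, stood in the windows of 20 of these 22 genes (90.9%) and in 41.1% of all 27025 genes in the table; Acat2 and Scap were the 2 without it. The sterol response element in the spelling TCACNCCAC, searched on both strands, stood in 1 of the 22, Hmgcs1, at 137 bases before the start, and in 1.44% of all genes. The 200 bases just before the start are shown for 5 enzymes whose levels varied widely between the arrays and for Ebp, whose level hardly varied, on the strand of the gene from 5′ to 3′, with CCAAT or its reverse complement and the sterol response element in capitals. Hmgcs1 lies at chr13:119690151-119690350 on the plus strand, Lss at chr10:76531405-76531604 (plus), Nsdhl at chrX:72918321-72918520 (plus), Dhcr7 at chr7:143830014-143830213 (plus; of its 3 starts, the one with the most matches), Cyp51 at chr5:4104698-4104897 (minus) and Ebp at chrX:8193513-8193712 (minus).
Hmgcs1: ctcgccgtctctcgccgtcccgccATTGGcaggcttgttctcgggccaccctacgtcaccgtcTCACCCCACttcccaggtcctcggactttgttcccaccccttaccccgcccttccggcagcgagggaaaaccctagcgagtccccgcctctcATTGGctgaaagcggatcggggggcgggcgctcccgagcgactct
Lss: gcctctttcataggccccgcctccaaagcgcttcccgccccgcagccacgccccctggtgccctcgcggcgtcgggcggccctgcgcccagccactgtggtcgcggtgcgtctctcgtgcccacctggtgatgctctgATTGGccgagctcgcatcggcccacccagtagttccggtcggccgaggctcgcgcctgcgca
Nsdhl: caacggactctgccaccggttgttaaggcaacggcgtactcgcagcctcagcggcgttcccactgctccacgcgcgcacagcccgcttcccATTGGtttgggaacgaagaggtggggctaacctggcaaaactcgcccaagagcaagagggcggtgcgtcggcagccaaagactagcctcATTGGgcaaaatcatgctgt
Dhcr7: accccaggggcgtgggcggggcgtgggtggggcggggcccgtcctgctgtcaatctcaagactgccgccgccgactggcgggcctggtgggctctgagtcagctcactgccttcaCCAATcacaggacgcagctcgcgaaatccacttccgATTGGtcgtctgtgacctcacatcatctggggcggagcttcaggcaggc
Cyp51: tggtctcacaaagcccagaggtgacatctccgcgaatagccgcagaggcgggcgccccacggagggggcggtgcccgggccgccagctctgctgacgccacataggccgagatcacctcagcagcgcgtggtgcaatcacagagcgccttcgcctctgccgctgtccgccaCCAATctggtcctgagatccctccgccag
Ebp: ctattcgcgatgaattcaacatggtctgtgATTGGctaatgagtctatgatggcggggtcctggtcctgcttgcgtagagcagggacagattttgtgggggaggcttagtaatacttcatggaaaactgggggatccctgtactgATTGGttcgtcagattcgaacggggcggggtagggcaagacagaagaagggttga
All 6 carried CCAAT in these 200 bases, Ebp included, so its presence did not separate the genes that varied from the one that did not. A match of letters is a description and does not show that a factor was bound.

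The deposited values are log2 intensities, and the array medians lay between 4.07 and 4.13. Every pair of arrays correlated across the tested genes with a Pearson r between 0.977 and 0.989. Levels of different probe sets are not compared here. The hepatocyte markers (Alb, Ttr, Apoa1, Tat and Cyp2e1) averaged between 13.19 and 13.41 in every array. The neutrophil (at most 2.91) and lymphocyte markers (at most 4.26) were near or under the level at which genes were left out as dim (3.95). No tested marker passed the test in any group comparison. Of the neutrophil markers 0 of 4 were tested, of lymphocytes 2 of 5, of adipocytes 2 of 4 and of cholangiocytes 3 of 5. In such bulk samples, fewer cells of a type and less RNA per cell cannot be told apart.

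For the enzymes with the widest spread, arrays of a single group lay further apart than the group means. Hmgcs1, the cytosolic HMG-CoA synthase of the first steps, stood at 7.74, 8.76, 10.11 and 9.54 in HFD replicates 1 to 4, at 8.03, 8.28, 8.50 and 9.60 in CANA replicates 1 to 4, and at 8.50, 10.10, 8.41, 9.37 and 9.89 in CR replicates 1 to 5. Its highest and lowest arrays thus both belonged to the HFD group, 5.19-fold apart. Sqle, the squalene epoxidase, stood at 6.28, 6.99, 7.92 and 7.83 in HFD, at 6.18, 5.88, 6.53 and 7.64 in CANA, and at 5.56, 8.08, 6.57, 7.52 and 7.74 in CR. The CR group held both its lowest and its highest array, 5.76-fold apart, and all 3 groups overlapped. Cyp51, the lanosterol demethylase, stood at 6.65, 7.40, 8.24 and 8.23 in HFD, at 6.94, 6.39, 7.35 and 8.53 in CANA, and at 6.49, 8.44, 7.20, 8.26 and 8.25 in CR. Its low arrays were again HFD 1, CANA 1 and 2 and CR 1, and its highest was CANA 4.

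Measured as the SD between arrays of a group, the median over the 25 genes was 0.42, against 0.17 over all tested genes. Of the 25, 14 (56%) lay above the 95th percentile of all tested genes, an SD of 0.34, and 13 of these were among the 17 tested enzymes. The widest were Sqle (SD 0.88), Cyp51 (0.84), Hmgcs1 (0.84), Nsdhl (0.82), Fdps (0.75), Msmo1 (0.70) and Lss (0.66). The regulators and carriers varied less: Srebf2 had an SD of 0.27, Scap 0.16, Npc1 0.19 and Npc2 0.14, while Insig1, whose product retains SREBP-2 and whose gene is itself an SREBP target, had 0.43. Ebp, the sterol isomerase, was the most even of all, with an SD of 0.08 and a range of 9.97 to 10.23 over the 13 arrays. Its SD lay at percentile 2.61 of all tested genes, Sc5d, which acts directly after it, lay at percentile 67.4 (SD 0.20), and Hsd17b7, Nsdhl and Dhcr7 lay above the 95th percentile.

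**Figure D1:**
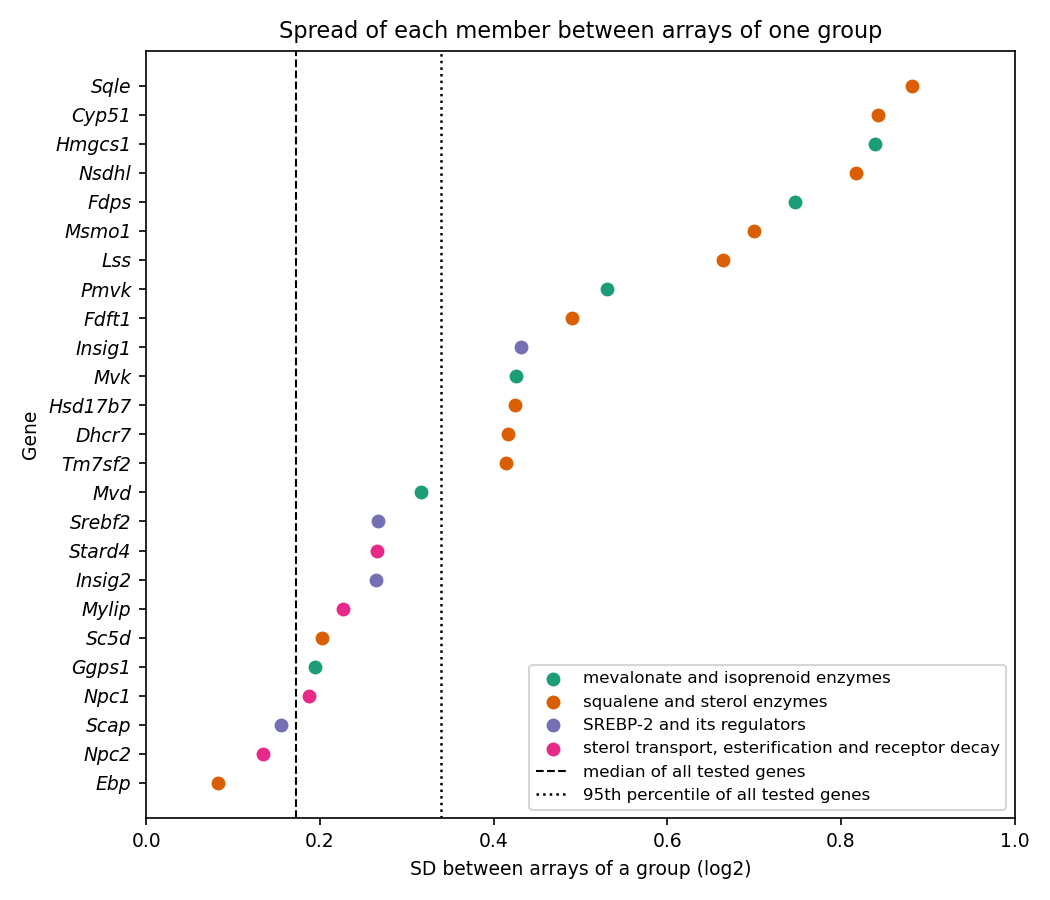
The SD of each of the 25 genes between arrays of a group (log2, pooled over the 3 groups; one point per gene, coloured by role), with the median (0.17) and the 95th percentile (0.34) of all 13308 tested genes as vertical lines. The points at the top are synthesis enzymes, with Sqle at 0.88, and Ebp stands lowest at 0.08.

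The enzymes went up and down in the same arrays. After each group's mean was taken away, the 136 pairs of the 17 enzymes had a mean Pearson r of 0.77 across the 13 arrays, and pairs of all tested genes 0.005; these are descriptions, since the arrays share their labelling and normalization and the 2 ranges of serial number described further on stand apart. With the 17 enzymes, Srebf2 itself had a mean r of 0.83 and Insig1 of 0.74, whereas Insig2 had 0.13, Npc1 -0.08, Npc2 -0.07 and Ebp 0.31. Stard4 (0.56), Mylip (0.50) and Scap (0.47) lay between. The array most below the genes' own means was HFD 1, where 2 of 25 genes were above their mean and the median deviation was -0.47, and the one most above was HFD 3, with 22 of 25 and 0.50. In CR 2 and CR 5, 24 and all 25 genes were above their mean; in CR 1 only 2 were.

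**Figure D2:**
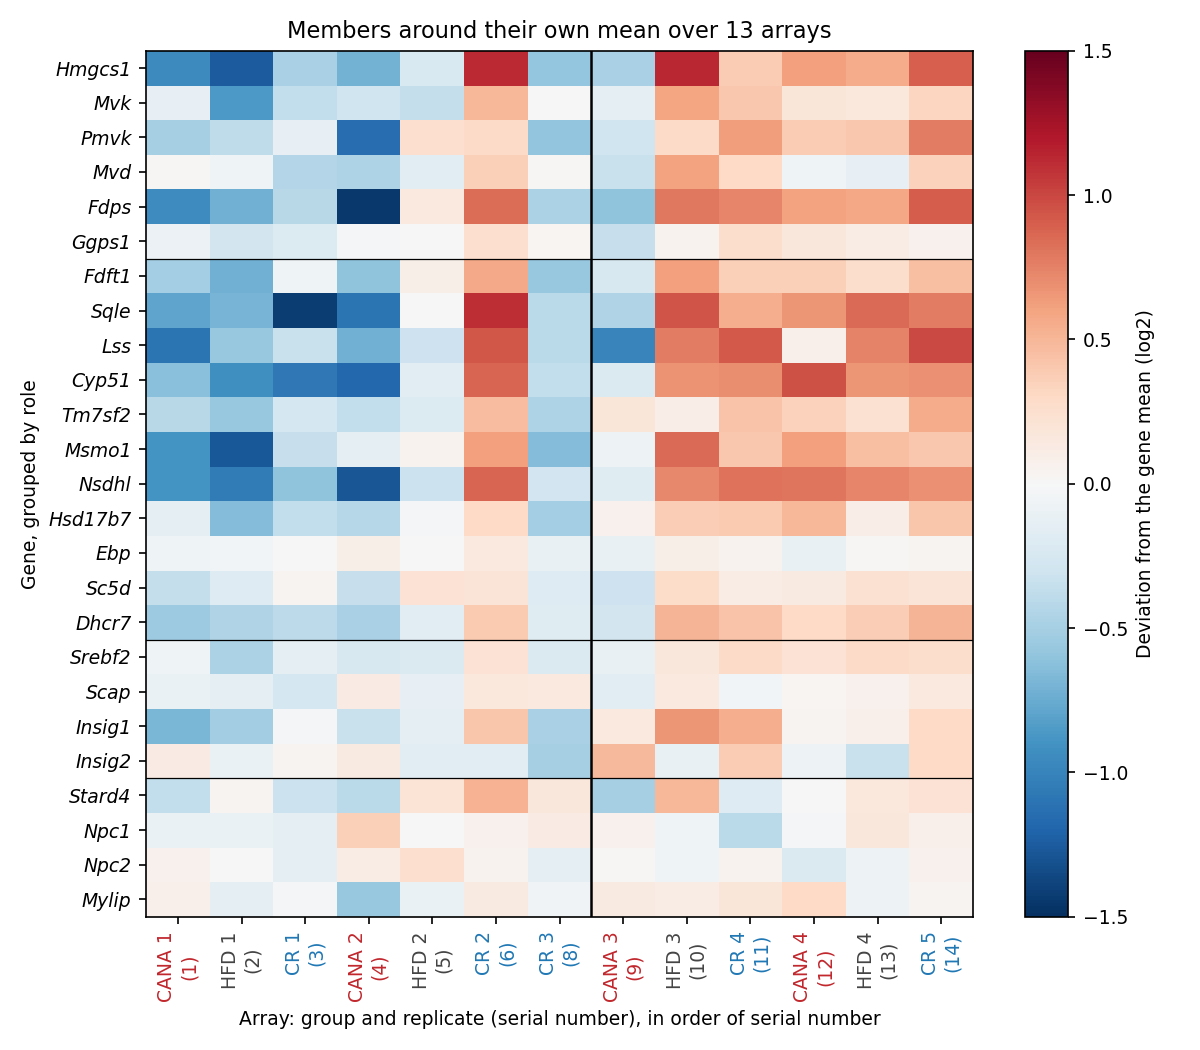
Deviation of each of the 25 genes (rows, grouped by role) from its own mean over the 13 arrays (columns, by serial number in brackets; names coloured by group), on a log2 colour scale from -1.5 to 1.5, with red above the mean. Most enzyme rows are blue on the left of the vertical line after serial number 8 and red on the right, except that CR 2 is red and CANA 3 mostly blue; Ebp, Npc1 and Npc2 stay pale.

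The first comparison asks what canagliflozin changed against the continued diet. No gene of the 25 passed the test (limma, Benjamini-Hochberg adjusted p under 0.05 over all genes), while 22 of all 13308 genes did (0.165%). The 25 were lower in the treated livers in the mean, with 18 below 0 and a median log2 difference of -0.23, against 53.9% below 0 and a median of -0.01 over all tested genes. Without adjustment 3 of the 25 had a p under 0.05 (Stard4, Sc5d and Lss), as did 1174 of all genes. Of the early enzymes, 5 of 6 were below 0 (median -0.35), and of the squalene and sterol enzymes 9 of 11 (median -0.32). The 4 genes of SREBP-2 control were split evenly, 2 on either side of 0.

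Stard4, a carrier that moves cholesterol between membranes and is a known SREBP-2 target, stood at 7.77, 7.94, 8.23 and 7.88 in HFD, at 7.36, 7.32, 7.23 and 7.72 in CANA, and at 7.41, 8.24, 7.89, 7.53 and 7.94 in CR. Every CANA array was below every HFD array, and the CR arrays spread over both. The difference of CANA from HFD was -0.55 (SE 0.17, 95% interval -0.90 to -0.20), with a limma adjusted p of 0.263. It was the 1 gene of 25 (4%) whose arrays did not overlap downward, where 2.77% of all genes did so.

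Sc5d, the lathosterol desaturase, stood at 10.58, 10.99, 11.05 and 11.00 in HFD, at 10.41, 10.42, 10.46 and 10.90 in CANA, and at 10.81, 10.96, 10.58, 10.88 and 10.97 in CR. It was low in 3 CANA arrays, in HFD 1 and in CR 3, and the groups overlapped. Its difference of CANA from HFD was -0.35 (SE 0.13, limma adjusted p = 0.425). Lss, the lanosterol synthase, which closes the sterol rings, stood at 6.23, 6.49, 7.57 and 7.55 in HFD, at 5.70, 6.08, 5.81 and 6.89 in CANA, and at 6.47, 7.74, 6.40, 7.73 and 7.79 in CR. Only CANA 4 reached into the range of either other group. Its difference of -0.84 (SE 0.38, 95% interval -1.65 to -0.03) had a limma adjusted p of 0.545.

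Insig2, the second INSIG gene, whose liver transcript is known to be lowered by insulin, had a difference of the opposite sign, with 8.12, 8.06, 8.12 and 7.89 in HFD, 8.34, 8.37, 8.71 and 8.15 in CANA, and 8.26, 8.07, 7.72, 8.60 and 8.52 in CR. Every CANA array was above every HFD array, and CR reached into both ranges. The difference of CANA from HFD was 0.35 (SE 0.17, 95% interval -0.01 to 0.70, limma adjusted p = 0.579). It was the 1 gene of 25 (4%) whose arrays did not overlap upward, where 2.13% of all genes did so. Insig1 stood at 9.84, 10.22, 11.02 and 10.44 in HFD, at 9.68, 10.02, 10.51 and 10.40 in CANA, and at 10.33, 10.78, 9.87, 10.91 and 10.66 in CR, and the groups overlapped. Its difference of CANA from HFD was -0.23 (SE 0.25).

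Srebf2, the gene of SREBP-2, stood at 7.10, 7.35, 7.75 and 7.86 in HFD, at 7.51, 7.34, 7.46 and 7.79 in CANA, and at 7.44, 7.79, 7.35, 7.85 and 7.84 in CR. The HFD and CANA means were both 7.52, with SDs of 0.35 and 0.19 (n = 4 each), and the difference of 0.01 had a 95% interval of -0.35 to 0.36. The transcript level does not show how much of the protein was cleaved. Scap (-0.02, SE 0.11), Npc1 (0.07, SE 0.13) and Npc2 (-0.04, SE 0.10), the last 2 being the lysosomal cholesterol exporters, and Mylip (0.04, SE 0.15), the ligase that marks lipoprotein receptors for decay, had mean differences of CANA from HFD near 0. The enzymes with a large mean difference and a large error were Fdps (-0.79, SE 0.43), Sqle (-0.70, SE 0.50), Pmvk (-0.53, SE 0.31), Hmgcs1 (-0.44, SE 0.48) and Nsdhl (-0.41, SE 0.47). Pmvk and Mvd carry mevalonate on to isopentenyl diphosphate, and Mvd differed by -0.27 (SE 0.19). Fdft1, the squalene synthase that commits the pathway to sterols, differed by -0.32 (SE 0.29), Cyp51 by -0.33 (SE 0.48) and Dhcr7 by -0.32 (SE 0.25). Msmo1, a sterol methyl oxidase, differed by -0.14 (SE 0.40), Hsd17b7, a sterol ketoreductase, by 0.05 (SE 0.25), Tm7sf2 by 0.05 (SE 0.24), Mvk by 0.02 (SE 0.25) and Ebp by -0.06 (SE 0.09). Ggps1, which leads away from sterols to geranylgeranyl diphosphate, differed by -0.04 (SE 0.13).

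**Figure D3:**
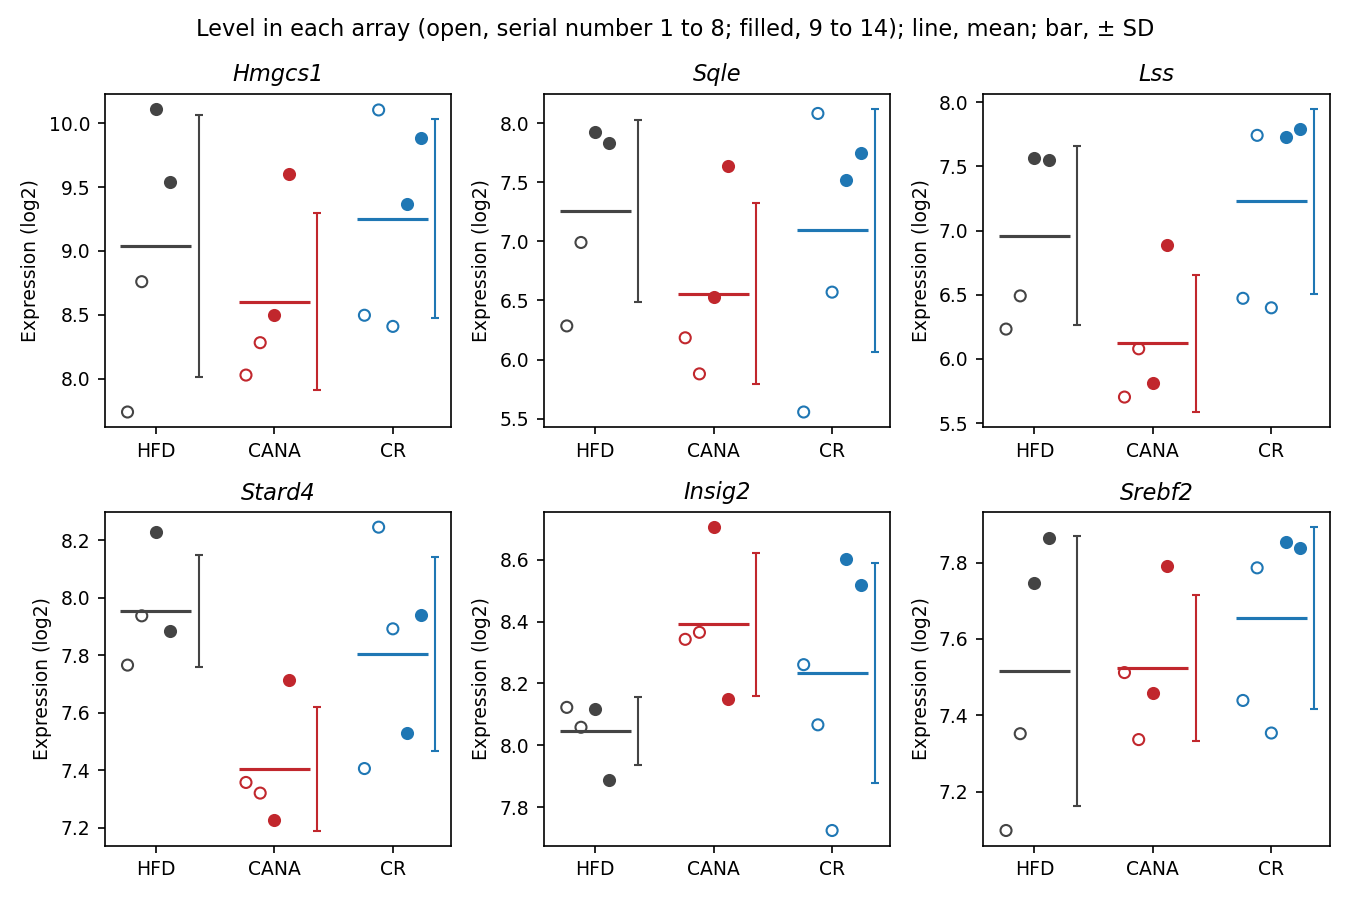
Deposited log2 level of 6 genes in each array (points; open for serial numbers 1 to 8, filled for 9 to 14) by group, with the group mean (line) and mean ± SD (bar; n = 4 HFD, 4 CANA and 5 CR). Each panel has its own axis, which does not start at 0. Stard4 in CANA (7.23 to 7.72) lies below HFD (7.77 to 8.23) and Insig2 in CANA (8.15 to 8.71) above HFD (7.89 to 8.12), while Hmgcs1, Sqle and Srebf2 overlap in all groups.

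These CANA arrays were evenly divided by serial number, the first bracketed number in each array's label, with 2 arrays at 1 to 8 and 2 at 9 to 14 in both CANA and HFD. Within 1 to 8 the median difference of the 25 genes was -0.10 (16 below 0), and within 9 to 14 it was -0.31 (21 below 0). Stard4 differed by -0.51 in the first range and -0.59 in the second, Lss by -0.47 and -1.21, and Insig2 by 0.26 and 0.43. When the range entered the fit as a term, none passed the test (smallest limma adjusted p = 0.237, Stard4). With 2 arrays of each group in each range, the term could not change the differences of CANA from HFD. The 2 ranges had been chosen earlier from the values of these genes, so a term for them narrows these genes' errors in advance, and p-values from that fit are no support. The median over the 25 also moved with single arrays, from -0.41 without HFD 1 to -0.07 without CANA 1 or HFD 3.

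The next comparison asks what canagliflozin changed against mice of matched weight. Again none of the 25 passed the test, with 20 of all genes passing (0.150%). Of the 25, 22 were lower in CANA than in CR in the mean, with a median of -0.29, where 51.2% of all genes were below 0. All 17 enzymes were below 0, with medians of -0.46 for the early and -0.40 for the squalene and sterol enzymes. The enzymes went up and down in the same arrays (mean r 0.77). Counts of them are therefore not counts of separate observations, in this or any other comparison. Insig2 (0.16, SE 0.16), Npc1 (0.13, SE 0.12) and Npc2 (0.01, SE 0.10) were the 3 above 0. No gene of the 25 had arrays that did not overlap, where 1.51% of all genes were lower and 1.42% higher without overlap. This comparison and that with HFD share the CANA arrays, so the 2 sets of values are not independent. Each array's label also holds a second number, which was not used in the fits. It was 9, 13, 15 and 16 in CANA, 4 and 21 to 24 in CR, and 6, 7, 19 and 20 in HFD. The levels of these genes went with it too, as given further on. CANA and CR were not evenly divided by it, and its part in their difference was not tested.

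Lss had the smallest p, at -1.11 (SE 0.36, 95% interval -1.87 to -0.34), which is 2.15-fold lower in the mean, with a limma adjusted p of 0.386. Fdps, the farnesyl diphosphate synthase at the branch to sterols and isoprenoids, stood at 7.52, 8.39, 9.03 and 8.83 in HFD, at 7.31, 6.80, 7.64 and 8.85 in CANA, and at 7.83, 9.08, 7.78, 8.98 and 9.16 in CR. The lower 3 CANA arrays were under every CR array, and CANA 4 was not. Its difference from CR was -0.91 (SE 0.41, limma adjusted p = 0.564). Stard4 differed by -0.40 (SE 0.16, adjusted p = 0.519) and Sc5d by -0.29 (SE 0.13, adjusted p = 0.557).

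With the range of serial number as a term none of the 25 passed either. Lss had the smallest p in that fit, at -1.19 (SE 0.26, limma adjusted p = 0.0955); its narrower error is no support, since the ranges had been chosen from the values of these genes. Within serial numbers 1 to 8 the median of the 25 was -0.37 and within 9 to 14 it was -0.26.

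The last comparison asks what caloric restriction to the matched weight changed against the continued diet. None of the 25, and none of all tested genes, passed the test (0%), and no gene of the 25 had an unadjusted p under 0.05, where 498 of all genes did. The median of the 25 was 0.10 with 20 above 0, against a median of -0.01 and 46.4% above 0 over all tested genes. Arrays without overlap were seen in none of the 25, against 0.721% of all genes lower and 0.451% higher. The largest mean differences among the 4 genes with the smallest p were those of Mvk (0.29, SE 0.24) and Tm7sf2 (0.26, SE 0.23), before Insig2 (0.19, SE 0.16) and Stard4 (-0.15, SE 0.16), all at a limma adjusted p of 0.999. Mvk, the mevalonate kinase, stood at 5.21, 5.71, 6.67 and 6.23 in HFD, at 5.95, 5.78, 5.92 and 6.25 in CANA, and at 5.71, 6.57, 6.07, 6.48 and 6.39 in CR. The HFD arrays alone covered the range of both other groups. Tm7sf2, a sterol reductase, stood at 8.65, 9.01, 9.32 and 9.45 in HFD, at 8.81, 8.85, 9.40 and 9.56 in CANA, and at 8.95, 9.69, 8.76, 9.65 and 9.78 in CR, with all groups overlapping.

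The direction of this last comparison depended on single arrays. Without HFD 1, where the enzymes were lowest, 18 of the 25 were below 0 and the median was -0.08, and Hmgcs1 turned from 0.21 to -0.22 and Insig1 from 0.13 to -0.05. The median was 0.009 without CR 2 (14 of the 25 above 0) and 0.005 without CR 5 (15 above 0). For Hmgcs1 the 95% interval of the difference of CR from HFD ran from -0.75 to 1.18, so a difference of more than 2-fold in the mean was not shut out by these 9 arrays.

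**Figure D4:**
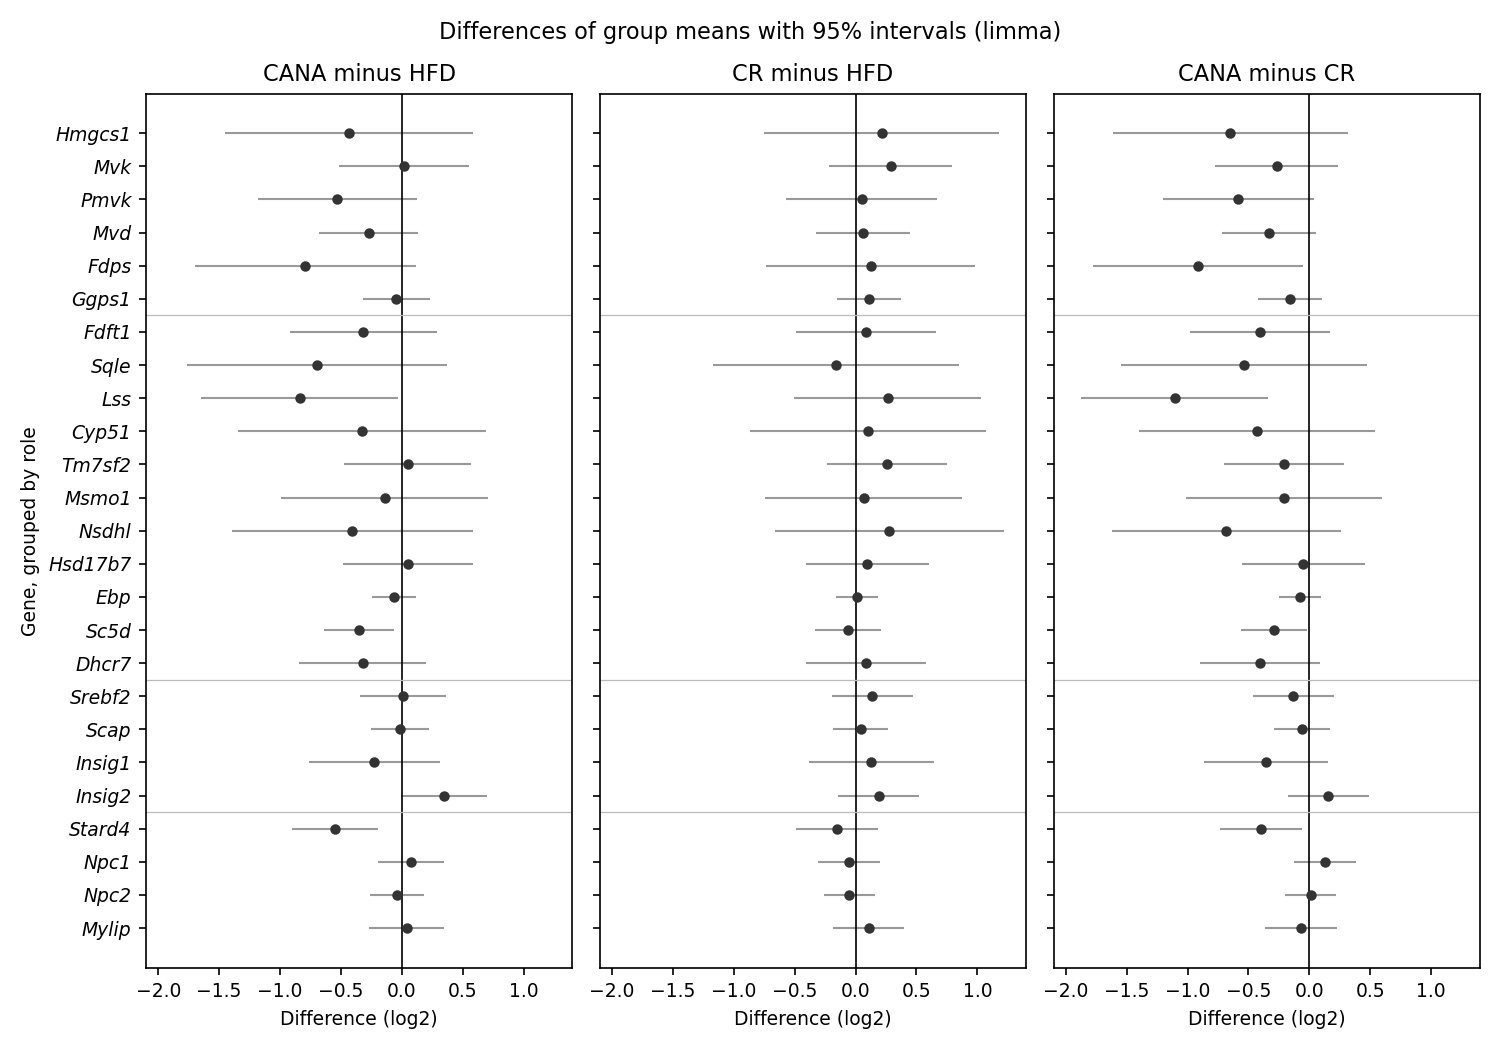
Difference of group means (log2) for each of the 25 genes in the 3 comparisons, with 95% intervals from limma (points and bars; genes grouped by role, CANA minus HFD, CR minus HFD and CANA minus CR from left to right). Most points of the left and right panels are below 0, with Lss lowest in both (-0.84 and -1.11), those of the middle panel lie near 0, and no gene passed the test in any panel.

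The levels of these genes also went with the serial number of the arrays. The number runs from 1 to 14 without a 7, and the labels do not say what it stands for. In a fit with a mean for each group, 23 of the 25 genes had a slope above 0, against 47.5% of all tested genes. The median slope of the 25 was 0.06 log2 units for each step in the number. Of the 25, 3 passed the test (12%), all higher at later numbers, where 50 of all genes did (0.376%), and 16 had an unadjusted p under 0.05, as did 1578 of all genes. The 3 were Nsdhl, Dhcr7 and Cyp51 (slopes 0.14, 0.08 and 0.14 per number; limma adjusted p = 0.029, 0.029 and 0.047), all enzymes that act after squalene. That these genes rise with the number was known from an earlier analysis of the same arrays, so the calls are not independent evidence of it.

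Nsdhl, a sterol dehydrogenase that removes a methyl group from the lanosterol skeleton, stood at 8.21, 8.93, 9.97 and 9.98 in HFD, at 8.36, 7.97, 9.07 and 10.06 in CANA, and at 8.65, 10.13, 8.96, 10.06 and 9.95 in CR. Arrays numbered 1 to 8 were replicates 1 and 2 of HFD and of CANA and replicates 1 to 3 of CR. Apart from CR 2, every one of them was below every array numbered 9 to 14. Dhcr7, which makes cholesterol from its direct precursor, stood at 7.87, 8.14, 8.82 and 8.69 in HFD, at 7.77, 7.82, 8.04 and 8.61 in CANA, and at 7.92, 8.71, 8.13, 8.74 and 8.83 in CR. CR 2 was again high and CANA 3 low for their range.

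As a description, arrays 9 to 14 exceeded arrays 1 to 8, with group means in the fit, by a median of 0.58 over the 25 genes, and 22 of 25 were above 0; over all tested genes the median was -0.01. This split had been chosen from these values and is given without a test. The difference was widest for Nsdhl (1.16), Cyp51 (1.11), Sqle (1.05), Hmgcs1 (1.01) and Fdps (0.99), and it was -0.07 for Npc1 and Npc2 and 0.00 for Ebp. Within HFD the median was 0.57 with 23 of 25 above 0, within CANA 0.46 with 20, and within CR 0.46 with 23. Of the 7 arrays numbered 1 to 8, all but CR 2 had 2 to 8 of the 25 genes above their own mean. Of the 6 arrays numbered 9 to 14, all but CANA 3 had 19 to 25. The second number in the labels was 21 for CR 2, 15 for CANA 3 and 22 for CR 3. Arrays with a second number of 4 to 15 had 2 to 8 of the 25 genes above their own mean. Those at 16 to 24 had 19 to 25, except CR 3 with 5. This was seen after the values were known and was not tested. The markers of Kupffer cells averaged 6.90 in the first range and 6.68 in the second, those of sinusoidal endothelial cells 7.51 and 7.66, of stellate cells 7.43 and 7.36, of adipocytes 4.01 and 4.22, of cholangiocytes 4.36 and 4.50, of lymphocytes 4.13 and 4.14, of neutrophils 2.77 and 2.72 and of hepatocytes 13.31 and 13.36; their part in the result was not tested. The adipocyte markers moved unevenly, with Cidec at 5.58 and 6.07, Lep at 2.83 and 3.13, Adipoq at 3.08 and 3.15 and Plin1 at 4.56 and 4.53.

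The 3 calls depended on single arrays. None of the 25 was called without HFD 1, HFD 3, HFD 4, CANA 1, CANA 4, CR 1 or CR 4. In those fits 3, 27, 16, 5, 13, 43 and 16 of all genes were called, in that order. Without HFD 2, CANA 2 or CANA 3, 1 or 2 of the 25 were called, with 38, 54 and 18 of all genes. Without CR 2, the array high for its serial number, 9 were called (90 of all genes), and 6 were without CR 3 (52 of all genes). Within arrays 1 to 8 alone 22 of 25 slopes were above 0 and within 9 to 14 alone 18. None of the 25, and none of all tested genes, was called in either. The number of genes above 0 was 21 to 24 of 25 when any 1 array was left out.

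**Figure D5:**
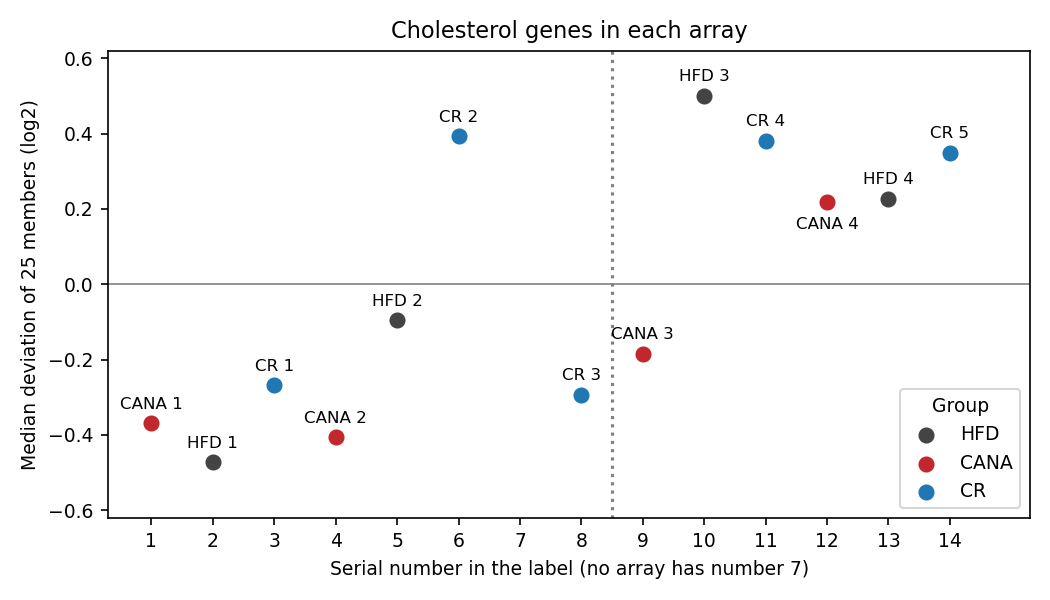
Median deviation of the 25 genes from their own means (log2) in each of the 13 arrays against the serial number, coloured by group and named by group and replicate, with a dotted line between 8 and 9. Arrays to the left lie from -0.47 to -0.10 except CR 2 at 0.39, and arrays to the right from 0.22 to 0.50 except CANA 3 at -0.18.

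Other genes of sterol metabolism were described from lists with no member in common with the 25. Among 7 tested genes of the same kind (other sterol enzymes and SREBP-2 responsive genes), none passed the test in a group comparison, 5 were below 0 in CANA against HFD and 6 against CR, and all 7 slopes over the serial number were above 0. Rdh11, a retinol dehydrogenase known as an SREBP target, was the 1 called there (slope 0.10, limma adjusted p = 0.043), and it was called in 2 of the 13 fits that each left out 1 array, those without CR 2 and CR 3. Aacs, the acetoacetyl-CoA synthetase that feeds ketone carbon into sterols, differed by -0.91 in CANA against HFD (adjusted p = 0.248) and -0.69 against CR (adjusted p = 0.481). Lbr, a sterol reductase of the nuclear envelope, differed by -0.17 and -0.29 (adjusted p = 0.815 and 0.598). In CR against HFD 6 of the 7 were above 0, with Pip4p1 at 0.17.

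Of 12 tested genes of SREBP activation, sterol sensing and degradation, Nfya, Nfyb, Nfyc and Sp1 among them, none passed in any comparison. All their differences lay between -0.22 and 0.21. In CANA 9 of the 12 were below 0 against HFD and 9 against CR, and 8 were above 0 in CR against HFD. Mbtps2, a protease that cuts SREBP, differed by 0.21 in CANA against HFD, and Erlin1 and Erlin2, which help to degrade sterol sensors, by -0.17 and -0.13. Rnf139, a ligase in the same membrane, differed by -0.15 in CANA against CR. Of 10 tested LXR and efflux genes, none passed: 7 were above 0 in CANA against HFD, with Scarb1, the lipoprotein receptor, at 0.19 and Smpdl3a at 0.17, and 6 were below 0 against CR, with Abcg8, a canalicular sterol exporter, at -0.28. In CR against HFD, Abcg1 stood at 0.23.

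None of the 10 tested genes of sterol transport and ester turnover passed. Nceh1, a cholesteryl ester hydrolase, differed by 0.23 in CANA against HFD and 0.30 against CR, Stard5 by -0.38 against CR (adjusted p = 0.283), and Gramd1c, a sterol transfer protein, by -0.30 in CANA and -0.25 in CR against HFD. Of 13 tested genes of the other isoprenoid branches, which lead to ubiquinone, dolichol and prenylated proteins, none passed; Pdss2 and Dhdds differed by 0.12 and -0.19 in CANA against HFD, and Coq2 and Rabggta by 0.28 and -0.20 against CR, with Coq2 at -0.32 in CR against HFD. Of 4 tested genes of cholesterol breakdown none passed. Cyp8b1, the sterol 12-alpha-hydroxylase that sets the kind of bile acid, differed by 0.81 against HFD (adjusted p = 0.267) and 0.72 against CR (adjusted p = 0.387); Cyp7a1, which controls the pace of bile acid synthesis, stood at 0.46 against HFD, and Cyp27a1 at -0.13 in CANA against CR and 0.09 in CR against HFD.

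The lipogenic genes driven by SREBP-1, the sister factor of SREBP-2, are given beside the sterol genes. Of 16 tested, 13 were below 0 in CANA against HFD (median -0.47) and 15 against CR (median -0.41), and in each comparison 2 were called lower, Fasn and Thrsp. Fasn, the fatty acid synthase, fell by 1.41 against HFD and by 1.14 against CR (limma adjusted p = 0.011 and 0.0195), and Thrsp, a lipogenic cofactor, by 1.00 and 1.09 (adjusted p = 0.038 and 0.014). With each array left out in turn, Fasn was called against HFD in all 13 fits and against CR in 8 (lost without CANA 2, 3 or 4 or CR 1 or 2), and Thrsp in 6 (lost without any HFD array or CANA 1, 2 or 3) and 10 (lost without CANA 2 or 3 or CR 1). In CR against HFD, Fasn differed by -0.27 (adjusted p = 0.999). Fasn stood at 10.00, 9.78, 10.49 and 10.51 in HFD, at 9.28, 8.71, 8.31 and 8.84 in CANA, and at 10.07, 10.00, 9.81, 9.61 and 10.14 in CR. All CANA arrays were under all others, including CANA 4, in which 19 of the 25 sterol genes were above their own mean. The median deviations of the sterol genes and of the 16 lipogenic genes had the same sign in 10 of the 13 arrays, for example -0.37 and -0.31 in CANA 1 and 0.50 and 0.33 in HFD 3. They had opposite signs in CANA 4 (0.22 and -0.25), CR 1 (-0.27 and 0.12) and HFD 2 (-0.10 and 0.05). Acss2, an acetyl-CoA synthetase, was the 1 lipogenic gene called over the serial number (slope 0.08, adjusted p = 0.047), and of the 13 fits that each left out 1 array it was called in 2, those without CR 2 and CR 3. Whether the 2 lists differ in their response was not tested.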

How the data were processed

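Per the labels, liver RNA was extracted with TRIzol and 250 ng were labelled by the WT Plus protocol. Per the submitters' processing notes, the authors made the deposited log2 values with RMA in Affymetrix Expression Console (no versions given), which normalizes the arrays to each other. Scanner files were not analysed here, and precision is limited by how few arrays there are.

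Of 41345 probe sets, 23521 had 1 gene symbol, 1814 several and 16010 none in the platform annotation; 23328 of the first were matched to RefSeq by Entrez identifier. Each gene was read from its single-symbol probe set with the highest mean over 13 arrays. Npc1 and Scap had another, dim probe set (means 3.19 and 3.95). Genes with a mean under the 40th percentile (3.95) were left out, which left 13308.

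Groups were compared with limma 3.58.1 (R 4.3.3) in 1 fit of all 13 arrays without covariates (10 residual and 5.71 prior degrees of freedom), and the serial number slope in a fit with a mean for each group. Called means a two-sided Benjamini-Hochberg adjusted p under 0.05 over all tested genes. The code was tested on simulated data. The genes and lists were chosen with earlier results of these data known. Values in every array are given for Hmgcs1, Sqle, Srebf2 and Insig1, for the 4 genes with the smallest p in each comparison and for the 3 with the smallest p over the serial number; of each other list, the 2 genes with the smallest p in each comparison of CANA and the 1 in that of CR with HFD are named. Fasn was shown in every array beyond that rule, and was chosen after its values were seen. The other settings tried were filters on dim genes, the mean of a gene's probe sets, normalizations, array weights, variance models, the arrays compared alone, a replicate block, the serial number as a covariate or term or within its 2 ranges, an adjusted p of 0.10 and leaving out each array. The serial slope within each range was added after seeing the data.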

Additional observations from a re-analysis of the deposited data

Results flagged for a closer look

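In each of the 3 groups the highest and the lowest array of every one of the 25 genes was set against its nearest neighbour with Dixon's criterion, which chance passes in about 1 in 20 groups; 3 of the 75 combinations of gene and group passed. Mvd, the mevalonate diphosphate decarboxylase, stood at 6.27 in HFD replicate 3, with the next array at 5.60. Sc5d stood at 10.58 in HFD replicate 1, with the next at 10.99, and at 10.90 in CANA replicate 4, with the next at 10.46. A count of 3 in 75 is not above that rate. HFD replicate 3 and CANA replicate 4, high here, carry serial numbers of 9 or more, and HFD replicate 1, low here, carries serial number 2. Other arrays of the same genes did not follow the number. Mvd was at 5.55 in HFD replicate 4 (serial number 13), and Sc5d at 10.99 in HFD replicate 2 (serial number 5).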

How the results depend on the processing

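None of the 25 genes was called in any group comparison under any of 29 other settings. Their medians ranged from -0.41 to -0.07 in CANA against HFD, from -0.41 to -0.15 in CANA against CR and from -0.08 to 0.23 in CR against HFD. Over the serial number 3 were called, and 1 with a robust variance model, 5 with array weights and 7 at an adjusted p of 0.10. Within numbers 1 to 8 it was 0 and within 9 to 14 it was 0 (0 of all genes in both). With 1 array left out 0 to 9 were called (3 to 90 of all genes). Fewer arrays enter the last 3 of these; for the others the cause was not tested. The median excess of arrays 9 to 14 ranged from 0.48 to 0.84. Called genes of all genes ranged from 0 to 56 in CANA against HFD (22 as reported), from 0 to 34 in CANA against CR (20), from 0 to 1 in CR against HFD (0) and from 0 to 134 over the serial number (50).

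Signs turned for genes that were not called. In CR against HFD, Hmgcs1 was at -0.20 and Mvk at -0.012 within arrays 9 to 14, and Insig2 at -0.073 and Sqle at 0.10 within 1 to 8. With 1 array left out, Hmgcs1 ranged from -0.22 to 0.57 there, Insig1 from -0.051 to 0.34, Sqle from -0.49 to 0.22 and Srebf2 from -1.47e-05 to 0.26. Sqle was at 0.06 without HFD replicate 3 and 0.03 without HFD replicate 4. In CANA against HFD, Srebf2 was at -0.18 within arrays 9 to 14 and ranged from -0.13 to 0.12 with 1 array left out, at -0.05 without HFD replicate 2 and -0.08 without CANA replicate 4. Of 37 values of genes from the other lists, 6 were called and kept their sign in every setting, and 2 of the others turned sign (Dhdds in CANA and Fasn in CR, both against HFD). The slope of Insig1 within arrays 9 to 14 was -0.10.

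The labels tie samples of the same replicate number by nothing else than consecutive serial numbers (replicate 1 holds 1 to 3, replicate 2 holds 4 to 6, replicate 3 holds 8 to 10 and replicate 4 holds 11 to 13). Over 12 such pairs r ranged from -0.15 to 0.30, and 7 were over 0.1. Pairs of unlike replicate number ranged from -0.32 to 0.25, and a smaller share of them was over 0.1. Whether arrays of the same number belong together was not tested. With the replicate number as a block, 0 of the 25 were called over the serial number, most of whose range the block takes up, and the median was 0.01 in CR against HFD and -0.26 in CANA against CR. With 4 or 5 arrays a group, the 95% interval of a difference of CANA from HFD ran about 1 log2 unit either way for Sqle, Hmgcs1, Cyp51 and Nsdhl, and less for the other genes.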
